A study of Mus musculus with 6 samples.

Results

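The genes described here are 40 genes of the cell division cycle, 20 that act in S phase, when DNA is copied, and 20 that act in mitosis. They were chosen by name from known roles, with earlier results of these data known. Each of the 40 was found by symbol in a table of 23194 genes measured by RNA sequencing. All 40 were abundant enough to be among the 15486 genes tested. All lungs were left lungs, and all mice were adults of the inbred C57BL/6 strain with no altered gene (wild type). In the injured group, 3 lungs had the left pulmonary artery tied for 4 h and were then reperfused for 24 h, an ischemia-reperfusion injury of warm lung. In the naive group, 3 lungs came from control mice that the labels do not describe as operated on, so the operation and the loss of blood flow cannot be told apart. A general protocol text mentions 4 h or 5 h of ligation, while the titles name 4 h for every injured lung. The labels do not state that the lungs of a group came from separate mice, and the p-values measure the spread between these samples only.

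A cell that enters the cycle first loads the MCM helicase at replication origins, with the help of Cdc6 and Cdt1, and then fires these origins with Cdc45 and the GINS complex. Most of these genes are switched on before S phase by E2F transcription factors, whereas genes of mitosis are switched on later, around G2, by the MuvB complex with B-Myb and Foxm1. The adult lung renews slowly at rest, and its epithelial, endothelial and immune cells can enter the cycle after injury. In RNA from whole lung, more dividing cells and more transcript per dividing cell cannot be told apart.

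The groups of 20 differed in the letters of their promoters. Windows of 300 bases, from 250 before to 50 after a transcription start, were taken from RefSeq on the build GRCm38.p6 for the 33 members that matched. Mcm4, Gins2, Ccne2, Ccna2, Aurkb, Tpx2 and Foxm1 had no window in that table. Letters of an E2F site (TTTCCCGC, TTTCGCGC, TTTGCCGC or TTTGGCGC, both strands) were in 6 of 17 S phase windows (35.3%), in 1 of 16 mitotic windows (6.25%), and in 430 of 11172 windows of all tested genes (3.85%). The 6 were Mcm3, Mcm5, Mcm6, Mcm7, Cdc6 and Cdt1, all of the helicase or its loading. Letters of a CHR element, the cell cycle homology region bound by MuvB (TTTGAA or TTCGAA, both strands), were in 3 S phase windows (17.6%), in 12 mitotic windows (75.0%) and in 13.8% of all windows. The mitotic windows without them were those of Ccnb1, Birc5, Cenpe and Nusap1. CCAAT, the letters bound by NF-Y (both strands), was in 10 S phase windows (58.8%), in 14 mitotic windows (87.5%) and in 37.8% of all windows. A match describes letters and does not show that a factor was bound in these lungs.

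The 250 bases before the start of 6 genes are printed 5′ to 3′. All but Uhrf1 were picked because they show E2F or CHR letters. Capitals mark E2F letters in Mcm5 (chr8:75109259-75109508, plus strand) and Mcm6 (chr1:128359706-128359955, minus strand). The run of capitals in Mcm5 and the first run in Mcm6 are each 2 overlapping matches on opposite strands. Uhrf1 (chr17:56303087-56303336, plus strand), which rose in injured lungs, has no such letters in its window and no capitals.
Mcm5: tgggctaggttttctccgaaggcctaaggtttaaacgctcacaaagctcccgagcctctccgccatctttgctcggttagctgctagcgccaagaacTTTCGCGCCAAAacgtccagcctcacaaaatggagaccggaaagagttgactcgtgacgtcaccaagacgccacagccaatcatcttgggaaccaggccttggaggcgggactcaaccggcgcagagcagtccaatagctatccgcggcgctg
Mcm6: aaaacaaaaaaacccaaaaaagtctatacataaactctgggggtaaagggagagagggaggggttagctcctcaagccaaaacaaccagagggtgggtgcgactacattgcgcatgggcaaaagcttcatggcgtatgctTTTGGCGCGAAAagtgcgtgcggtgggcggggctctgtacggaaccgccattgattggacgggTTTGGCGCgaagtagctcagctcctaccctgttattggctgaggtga
Uhrf1: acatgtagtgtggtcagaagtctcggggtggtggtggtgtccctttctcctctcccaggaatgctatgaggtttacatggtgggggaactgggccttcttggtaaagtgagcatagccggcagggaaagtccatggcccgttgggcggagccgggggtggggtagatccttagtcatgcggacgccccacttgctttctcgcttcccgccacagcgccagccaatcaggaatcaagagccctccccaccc
Capitals mark CHR letters in Mki67 (chr7:135716380-135716629, minus strand), Top2a (chr11:99024190-99024439, minus strand) and Cdk1 (chr10:69352913-69353162, minus strand). The E2F match that Cdk1 also holds is not in capitals here.
Mki67: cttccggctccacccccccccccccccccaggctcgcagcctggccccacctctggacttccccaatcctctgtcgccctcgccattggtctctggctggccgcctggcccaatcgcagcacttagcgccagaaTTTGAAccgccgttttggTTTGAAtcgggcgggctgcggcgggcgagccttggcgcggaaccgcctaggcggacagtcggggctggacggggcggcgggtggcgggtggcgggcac
Top2a: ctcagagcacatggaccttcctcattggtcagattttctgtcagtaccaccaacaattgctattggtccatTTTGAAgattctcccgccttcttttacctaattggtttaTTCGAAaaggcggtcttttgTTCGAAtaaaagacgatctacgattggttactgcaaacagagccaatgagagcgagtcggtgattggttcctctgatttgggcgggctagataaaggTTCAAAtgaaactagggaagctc
Cdk1: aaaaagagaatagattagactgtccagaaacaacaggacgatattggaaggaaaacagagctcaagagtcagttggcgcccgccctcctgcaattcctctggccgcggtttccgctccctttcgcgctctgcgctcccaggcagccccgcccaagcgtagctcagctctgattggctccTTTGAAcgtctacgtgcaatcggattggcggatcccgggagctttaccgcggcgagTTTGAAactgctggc

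The libraries held 18913487 to 34986276 counts, and total counts did not separate the groups (exact two-sided permutation p = 0.4, where 3 against 3 cannot go below 0.1). The label of lung was matched by the markers. Sftpc, a surfactant protein of type II cells, averaged 17871 FPKM in injured and 19484 FPKM in naive lungs, where FPKM is the authors' count scaled by gene length and library total. Pecam1, of endothelial cells, averaged 251 FPKM in injured and 296 FPKM in naive lungs. For all tested genes edgeR's quasi-likelihood test, adjusted by the Benjamini-Hochberg method, called 334 higher (2.16%) and 148 lower (0.956%) in injured lungs at an adjusted p under 0.05.

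Some libraries stood apart in these genes. Naive replicate 3 was the highest of the naive lungs in 20 of 20 mitotic genes and in 8 of 20 S phase genes, against 37.4% of all tested genes. Injured replicate 2 was the lowest of the injured lungs in 20 of 20 mitotic genes and in 15 of 20 S phase genes, against 32.7% of all tested genes. Naive replicate 3 was above injured replicate 2 in all 20 mitotic genes, in 4 S phase genes and in 49.5% of all tested genes. No label separates these lungs from others of their groups, and naive replicate 3 was also the library with the most counts. Results are given below with and without them.

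Of 20 S phase genes 5 rose in injured lungs, against 2.16% of all tested genes: Uhrf1, Rrm2, Mcm5, Rrm1 and Gins2. None fell, and all 20 had a log2 fold change above 0 (49.8% of all tested genes did). Their median log2 fold change was 0.44, with a range of 0.16 to 1.26, where the median of all tested genes was -0.00095. In 14 of the 20 every injured lung was above every naive lung, which held for 12.3% of all tested genes. Unadjusted p was under 0.05 with a higher level for 12 of the 20, against 9.07% of all tested genes. Mitotic genes had a median log2 fold change of 0.58, no smaller than that of S phase genes, but 0 of 20 were called by edgeR, by DESeq2 or by limma-voom. In edgeR's fit 4 of the 20, Cdk1, Aurka, Plk1 and Birc5, had an unadjusted p under 0.05. In none of the 20 did the lungs of the groups separate.

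**Figure D1:**
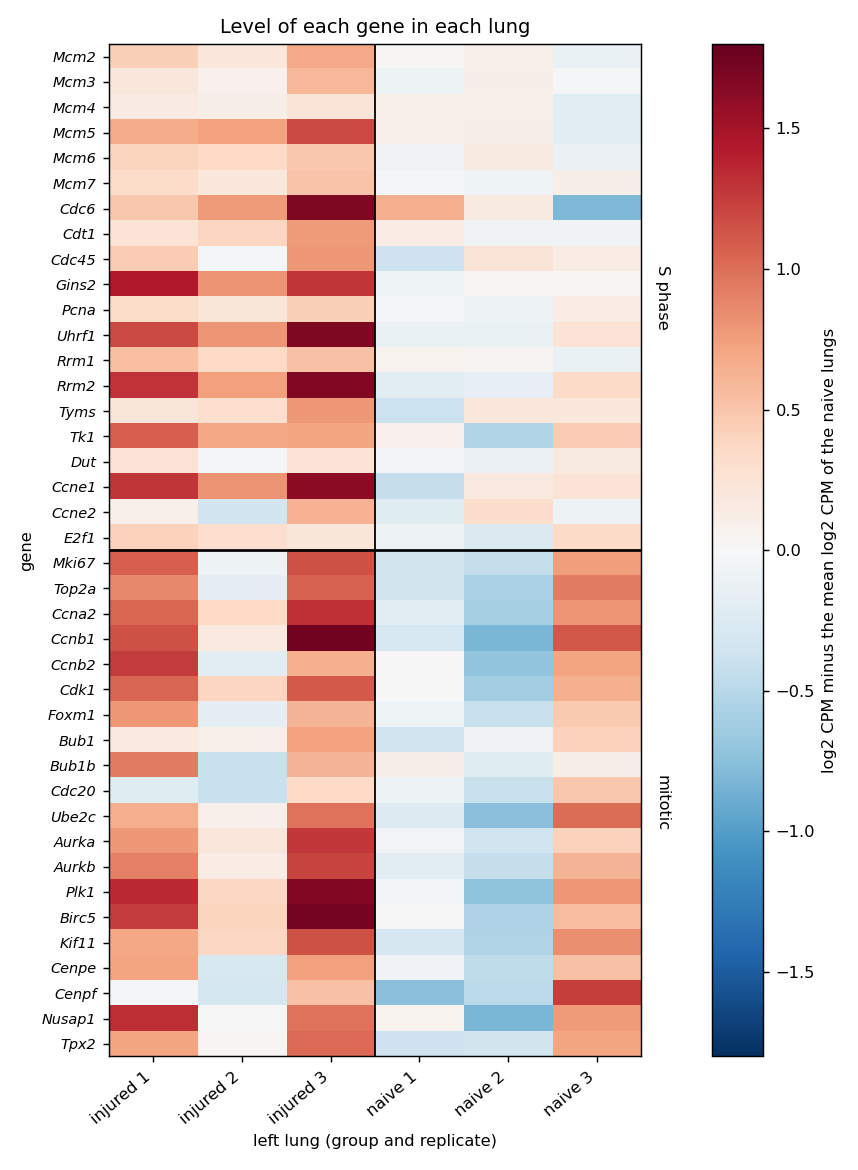
Level of each of the 40 genes in each of the 6 lungs, as log2 CPM minus the mean log2 CPM of the naive lungs (colour), with injured replicates 1 to 3 left of naive replicates 1 to 3. Most S phase rows are darker red across the injured lungs than across the naive ones, while in mitotic rows naive replicate 3 is red and injured replicate 2 is pale or blue.

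The 6 subunits of the MCM helicase, which unwinds DNA at the fork, had log2 fold changes between 0.16 and 0.88, and 1 of them rose. Mcm5 had 19.1, 19.9 and 27.4 CPM in injured replicates 1 to 3, against 12.8, 13.0 and 10.5 CPM in naive replicates 1 to 3, where CPM is the count scaled to the TMM-adjusted library size. Every injured lung was above every naive lung (log2 fold change 0.88 ± 0.16 SE, edgeR adjusted p = 0.0204). Mcm6 had 43.4, 42.2 and 46.0 CPM in injured lungs, against 31.5, 36.9 and 30.6 CPM in naive lungs. These did not overlap either, but edgeR did not call it (0.41 ± 0.10, adjusted p = 0.0648). Mcm2 had 26.1, 22.0 and 30.9 CPM in injured lungs, against 19.7, 20.7 and 17.8 CPM in naive lungs (0.44 ± 0.14, edgeR adjusted p = 0.134). Mcm7 had 32.9, 29.8 and 37.1 CPM in injured lungs, against 25.6, 24.7 and 28.0 CPM in naive lungs (0.35 ± 0.11, edgeR adjusted p = 0.148). Both pairs of groups were separate, with gaps of under 2 CPM. The smallest difference was that of Mcm4, with 36.6, 35.8 and 39.0 CPM in injured lungs and 35.3, 35.4 and 29.2 CPM in naive lungs (0.16 ± 0.11, edgeR adjusted p = 0.514). Mcm3 alone overlapped, with 27.9, 25.6 and 36.6 CPM in injured lungs and 22.8, 26.1 and 24.0 CPM in naive lungs (0.31 ± 0.14, edgeR adjusted p = 0.312). So subunits of a single complex differed in their log2 fold change, and the difference between them was not tested.

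Among the genes that load and fire the helicase, Gins2, a subunit of the GINS complex, rose. It was a low gene, with 87, 63 and 92 counts in injured lungs and 45, 31 and 56 counts in naive lungs. This gave 4.31, 2.79 and 3.88 CPM in injured lungs and 1.51, 1.64 and 1.64 CPM in naive lungs, and the groups were separate. Its log2 fold change was 1.20 ± 0.26 SE (edgeR adjusted p = 0.0398). Gse1, a gene on the opposite strand that overlaps Gins2, had 7728 counts in all lungs against 374 for Gins2, and whether the counting used strand is not stated in the sources used here. The same doubt holds for Cdc45 (522 counts, with 7159 for Ufd1l on the opposite strand), Mcm7 (4404 counts, with 9092 for Cops6 and 1407 for Ap4m1), Ccne2 (468 counts, with 4437 for Ints8) and Ccna2 (907 counts, with 1882 for Exosc9). Afmid and Oip5, which overlap Tk1 and Nusap1 in this way, had fewer counts than they did. Cdt1, which brings the helicase to origins, had 8.93, 9.83 and 12.8 CPM in injured lungs, against 8.20, 7.19 and 7.16 CPM in naive lungs (0.48 ± 0.17, edgeR adjusted p = 0.196). Cdc6, its partner, had 2.43, 2.97 and 5.61 CPM in injured lungs, against 2.72, 1.96 and 0.994 CPM in naive lungs. The groups overlapped, and the log2 fold change of 0.97 ± 0.43 was not called (edgeR adjusted p = 0.303). Cdc45, part of the active helicase, had 4.12, 2.97 and 5.19 CPM in injured lungs and 2.32, 3.54 and 3.30 CPM in naive lungs, which also overlapped (0.43 ± 0.28, edgeR adjusted p = 0.496).

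At the fork itself, Pcna, the sliding clamp that holds DNA polymerase on its template, and Uhrf1, which brings maintenance DNA methylation to newly copied DNA, were both separate between groups. Uhrf1 (chr17, 56303321 to 56323486, plus strand, mm10) had 13.9, 10.6 and 19.6 CPM in injured lungs, against 5.61, 5.60 and 7.22 CPM in naive lungs. It rose by a log2 fold of 1.25 ± 0.23 SE, with the lowest adjusted p of the 40 genes (edgeR, 0.0200). Pcna had 73.2, 67.4 and 77.8 CPM in injured lungs, against 56.6, 54.5 and 63.5 CPM in naive lungs. Its log2 fold change was 0.32 ± 0.096 (edgeR adjusted p = 0.121). Pcna had the highest level of the 40 per gene length, 43.1 FPKM over all 6 lungs, and with Rrm1 the smallest SE.

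Among 5 genes of nucleotide supply 2 rose, both of them subunits of ribonucleotide reductase. Rrm2, the regulatory subunit of ribonucleotide reductase that is made in S phase and degraded after it, had 14.7, 9.96 and 18.9 CPM in injured lungs, against 5.21, 5.39 and 7.54 CPM in naive lungs. It rose by a log2 fold of 1.26 ± 0.25 SE (edgeR adjusted p = 0.0297), the largest value among the S phase genes. Rrm1, the catalytic subunit, had 53.9, 47.2 and 53.2 CPM in injured lungs, against 38.8, 38.3 and 34.0 CPM in naive lungs. It rose less, by 0.48 ± 0.098 (edgeR adjusted p = 0.0312), and neither subunit overlapped between groups. Tk1, thymidine kinase, had 11.7, 8.99 and 9.02 CPM in injured lungs, against 5.84, 3.81 and 7.57 CPM in naive lungs (0.77 ± 0.24, edgeR adjusted p = 0.145). Tyms, which makes thymidylate, had 7.04, 7.44 and 10.4 CPM in injured lungs and 4.60, 6.98 and 6.87 CPM in naive lungs (0.44 ± 0.23, edgeR adjusted p = 0.377). These 2 were separate between groups without being called. Dut, which removes dUTP, had 11.5, 9.30 and 11.4 CPM in injured lungs and 9.20, 8.88 and 10.7 CPM in naive lungs and overlapped (0.16 ± 0.15, edgeR adjusted p = 0.669).

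Neither of the cyclins E, which activate Cdk2 at the start of S phase, was called, and the difference between them was not tested. Ccne1 had 3.07, 2.21 and 3.84 CPM in injured lungs, against 0.940, 1.43 and 1.49 CPM in naive lungs. The groups were separate, with a log2 fold change of 1.24 ± 0.32 (edgeR adjusted p = 0.0729). Ccne2 had 3.17, 2.35 and 4.60 CPM in injured lungs and 2.55, 3.70 and 2.81 CPM in naive lungs, which overlapped (0.17 ± 0.29, edgeR adjusted p = 0.839). E2f1, a factor that turns on S phase genes, had 14.9, 13.7 and 12.9 CPM in injured lungs and 10.5, 9.25 and 14.2 CPM in naive lungs, overlapping through naive replicate 3 (0.28 ± 0.17, edgeR adjusted p = 0.461).

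**Figure D2:**
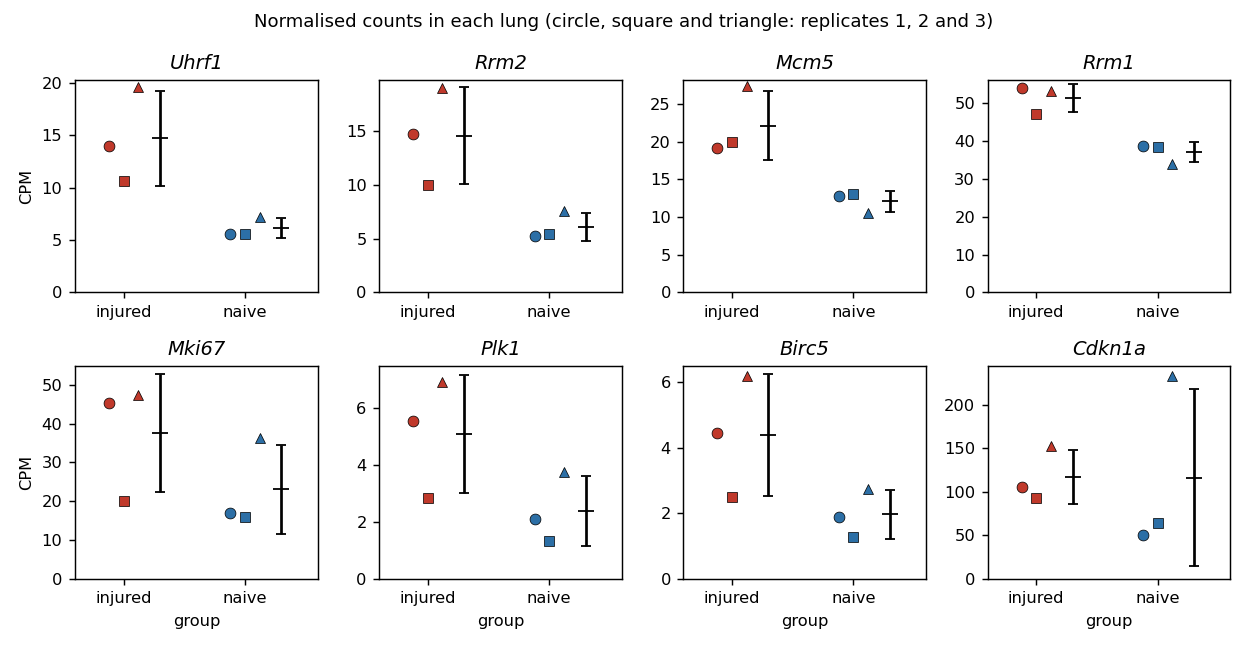
Normalised counts (CPM) of 8 genes in each lung, injured left of naive, with circle, square and triangle for replicates 1, 2 and 3 and a bar for mean ± SD (n = 3). The upper row, S phase genes that rose, shows separate groups. In the lower row naive replicate 3 lies above injured replicate 2 in each of Mki67, Plk1, Birc5 and Cdkn1a.

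Mki67 and Top2a are the usual tissue marks of cycling cells. Mki67, a coat protein of mitotic chromosomes, had 45.3, 20.1 and 47.4 CPM in injured lungs, against 17.1, 15.9 and 36.2 CPM in naive lungs. Top2a, the topoisomerase that untangles copied chromosomes, had 26.8, 13.1 and 30.7 CPM in injured lungs, against 11.7, 9.83 and 27.8 CPM in naive lungs. In both, the 3 upper values were those of injured replicates 1 and 3 and naive replicate 3. Neither was called, with a log2 fold change of 0.70 ± 0.49 for Mki67 (edgeR adjusted p = 0.566) and 0.50 ± 0.53 for Top2a (edgeR adjusted p = 0.722).

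None of the 5 genes of mitotic entry was called. Cdk1, the kinase that starts mitosis, had 6.45, 4.07 and 6.70 CPM in injured lungs, against 3.09, 2.01 and 4.82 CPM in naive lungs (0.77 ± 0.33, edgeR adjusted p = 0.272). Ccnb1, its cyclin B partner, had 4.36, 2.21 and 6.58 CPM in injured lungs, against 1.61, 1.11 and 4.27 CPM in naive lungs (0.88 ± 0.57, edgeR adjusted p = 0.509). Ccna2, cyclin A, had 8.18, 5.14 and 9.91 CPM in injured lungs, against 3.49, 2.64 and 6.93 CPM in naive lungs (0.81 ± 0.38, edgeR adjusted p = 0.340). These 3 genes ordered the lungs alike, and the overlap came from naive replicate 3 lying above injured replicate 2. Ccnb2 (0.55 ± 0.44) and Foxm1 (0.40 ± 0.30), a factor that turns on mitotic genes, overlapped further, with injured replicate 2 also below naive replicate 1. For Ccnb2, reads could also be shared with the pseudogene Ccnb2-ps, which had 375 counts against 595 for Ccnb2.

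The mitotic kinases and the passenger complex held the largest log2 fold changes among the mitotic genes. Birc5, survivin, had 4.46, 2.48 and 6.20 CPM in injured lungs, against 1.88, 1.27 and 2.75 CPM in naive lungs (1.13 ± 0.38, edgeR adjusted p = 0.172). Plk1, polo-like kinase, had 5.55, 2.83 and 6.91 CPM in injured lungs, against 2.12, 1.32 and 3.74 CPM in naive lungs (1.06 ± 0.43, edgeR adjusted p = 0.256). For both, 2 injured lungs were above all naive lungs and injured replicate 2 was below naive replicate 3. Aurka, which matures the spindle poles, had 4.56, 3.06 and 6.37 CPM in injured lungs, against 2.55, 2.06 and 3.51 CPM in naive lungs (0.77 ± 0.31, edgeR adjusted p = 0.252). Aurkb, the kinase of the passenger complex, had 5.45, 3.19 and 6.79 CPM in injured lungs, against 2.55, 2.17 and 4.44 CPM in naive lungs (0.73 ± 0.35, edgeR adjusted p = 0.331).

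The genes of the spindle checkpoint and the anaphase-promoting complex had a median log2 fold change of 0.36, the lowest of the mitotic roles. Cdc20, which activates that complex, had 5.16, 4.52 and 7.71 CPM in injured lungs and 5.61, 4.55 and 8.42 CPM in naive lungs, with a log2 fold change of -0.10 ± 0.28 (edgeR adjusted p = 0.900). Elovl1 overlaps Cdc20 on the opposite strand and had 51863 counts against 930 for Cdc20. Ube2c, the ubiquitin-conjugating partner of the complex, had 5.60, 3.81 and 7.04 CPM in injured lungs and 3.02, 2.11 and 7.16 CPM in naive lungs (0.40 ± 0.45, edgeR adjusted p = 0.736). The highest lung of all was a naive one for both genes. The checkpoint kinases Bub1 (0.32 ± 0.27) and Bub1b (0.46 ± 0.31) were not called. Bub1b had 18.2, 7.26 and 14.8 CPM in injured lungs and 10.4, 8.25 and 10.4 CPM in naive lungs, so that injured replicate 2 was below every naive lung.

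Among spindle and kinetochore genes, Cenpf, a kinetochore protein, had 4.07, 3.32 and 5.99 CPM in injured lungs and 2.45, 2.96 and 9.80 CPM in naive lungs. Naive replicate 3 was the highest of the 6, and the log2 fold change was -0.20 ± 0.56 (edgeR adjusted p = 0.903). Kif11, the motor that pushes spindle poles apart, had 7.34, 5.85 and 9.95 CPM in injured lungs and 3.66, 3.12 and 8.07 CPM in naive lungs (0.62 ± 0.37, edgeR adjusted p = 0.468). Cenpe, a kinetochore motor (0.39 ± 0.33), Nusap1, which binds spindle microtubules (0.71 ± 0.45), and Tpx2, which activates Aurka (0.54 ± 0.36), were not called.

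**Figure D3:**
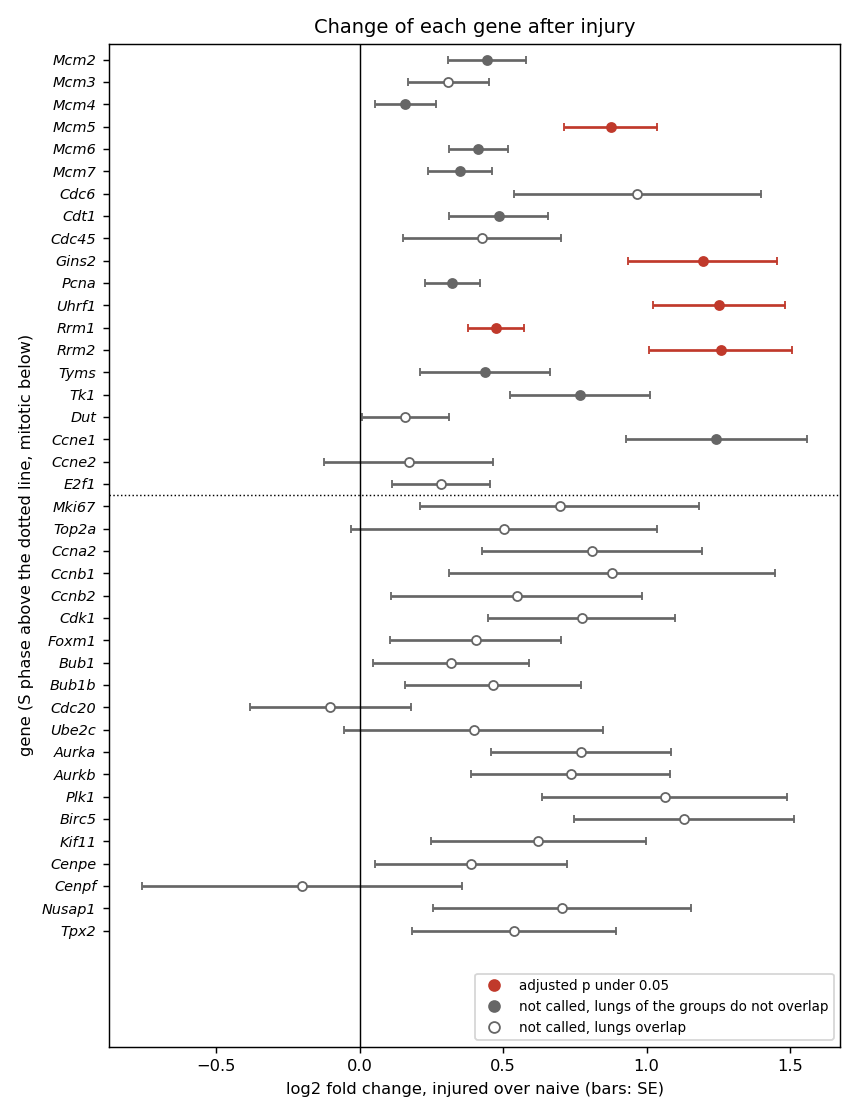
Log2 fold change of each of the 40 genes, injured over naive, with bars of 1 SE from edgeR. Red points are called at an adjusted p under 0.05, filled grey points were not called but have separate groups, and open points overlap; all 5 red points are S phase genes, and every mitotic point is open.

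Set side by side, the S phase and mitotic genes had similar log2 fold changes and unlike spread between lungs, and neither contrast was tested. The median SD of log2 CPM within groups was 0.235 for S phase genes (0.106 to 0.687), 0.599 for mitotic genes (0.366 to 0.904) and 0.177 for all tested genes. The median of the mitotic genes was above that of the S phase genes by 0.14 on the log2 scale. Averaged over its 20 genes and set against the naive mean, the S phase group stood at 0.58, 0.37 and 0.83 log2 units in injured replicates 1 to 3, against -0.052, 0.018 and 0.034 in naive replicates 1 to 3. All injured lungs were above all naive lungs. The mitotic group stood at 0.82, 0.029 and 1.03 in injured lungs, against -0.18, -0.52 and 0.69 in naive lungs. Within a lung, the mitotic average minus the S phase average was 0.25, -0.34 and 0.19 in injured lungs and -0.12, -0.53 and 0.66 in naive lungs. The lung with the largest mitotic excess over S phase was therefore a naive one. Leaving out naive replicate 3 gave a mitotic median of 1.09 and an S phase median of 0.46, and leaving out injured replicate 2 gave 0.82 and 0.53. Mitotic genes were called in neither case.

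**Figure D4:**
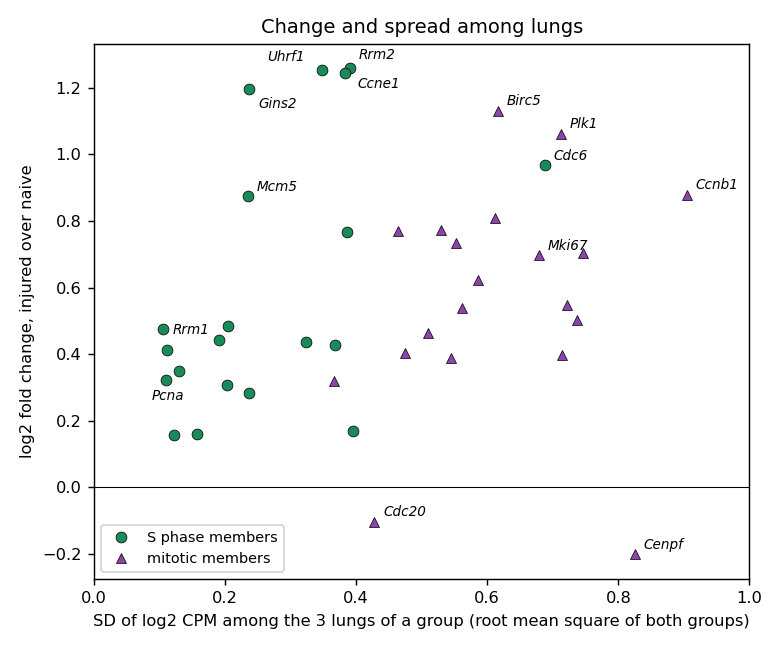
Log2 fold change of each gene, injured over naive, against the SD of its log2 CPM among the 3 lungs of a group (root mean square of both groups). S phase genes (circles) lie mostly left of mitotic genes (triangles), with medians of 0.235 and 0.599, at similar heights.

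Levels per gene length ran from 0.426 FPKM for Cenpf to 43.1 FPKM for Pcna, as means of the 6 lungs. Rrm1 (11.1 FPKM) was the next S phase gene, and Top2a (3.82 FPKM) was the highest mitotic one. The 20 S phase genes summed to 138 to 172 FPKM in injured lungs, against 113 to 116 FPKM in naive lungs, with no overlap. The 20 mitotic genes summed to 28.2 to 56.8 FPKM in injured lungs and 20.2 to 44.1 FPKM in naive lungs, which overlapped. Across the 20 S phase genes Spearman's correlation of mean FPKM with log2 fold change was -0.441, and across the 20 mitotic genes it was -0.00752. These are descriptions across genes of the same libraries, and genes are not independent replicates.

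The S phase count depended on single libraries. Leaving out naive replicate 1 or naive replicate 2 left 0 of the 20 called, and leaving out injured replicate 1 left Mcm5 only. Without injured replicate 3 Uhrf1 and Mcm5 were called, without naive replicate 3 Uhrf1 and Rrm2, and without injured replicate 2 the same 5 genes. In these fits 0.918% to 2.12% of all tested genes were called higher, and the S phase median stayed between 0.32 and 0.53. DESeq2 called 8 S phase genes, the 5 with Ccne1, Tk1 and Mcm6, where it called 3.61% of all genes higher. Limma-voom called Uhrf1, Mcm5 and Rrm1, where it called 1.99% of all genes higher. In the authors' deposited table the adjusted p was under 0.05 for the same 8 S phase genes as with DESeq2 and for 0 mitotic genes, and for 3.61% of all genes in the higher direction.

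Further origin and replisome genes had a smaller median than the S phase members, and further spindle genes a smaller median than the mitotic members. Of 38 further genes of origins and the replisome, 37 were tested (Fen1 had too few counts), and 0 were called by edgeR. Unadjusted p was under 0.05 for 13 higher and 1 lower, against 9.07% higher and 7.66% lower of all tested genes. In 14 the groups were separate and higher after injury, against 12.3% of all tested genes, and the median log2 fold change was 0.19. DESeq2 called 4 of them higher and limma-voom 0. The most abundant by mean FPKM were Rfc2, of the clamp loader, with 29.2, 27.1 and 29.3 CPM in injured lungs and 25.2, 23.9 and 20.6 CPM in naive lungs (0.30 ± 0.11, edgeR adjusted p = 0.202), and Gins4 (0.11 ± 0.12). Mcm10, chosen after its values were seen, had the largest log2 fold change of the list, with 2.53, 1.51 and 3.50 CPM in injured lungs, against 0.806, 1.00 and 1.14 CPM in naive lungs (1.35 ± 0.37, edgeR adjusted p = 0.0902).

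Of 46 further genes of the spindle, kinetochore and cytokinesis, 0 were called by edgeR. An unadjusted p under 0.05 was found for 9, all higher, against 9.07% of all tested genes. A log2 fold change above 0 was found for 43, against 49.8% of all tested genes. The median of the 46 was 0.46. The most abundant by mean FPKM were Bub3, of the checkpoint (0.063 ± 0.080), and Pttg1, securin (0.038 ± 0.13). Averaged by lung, this list stood at 0.62, 0.079 and 0.82 log2 units in injured lungs and -0.062, -0.38 and 0.44 in naive lungs, the order of lungs seen in the 20 mitotic genes. The origin and replisome list stood at 0.29, 0.21 and 0.42 in injured lungs and 0.094, -0.021 and -0.072 in naive lungs, again separate. The 13 condensin and cohesin genes had 0 calls by edgeR and a median of -0.011. An unadjusted p under 0.05 was found for 3, all higher, against 9.07% of all tested genes.

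**Figure D5:**
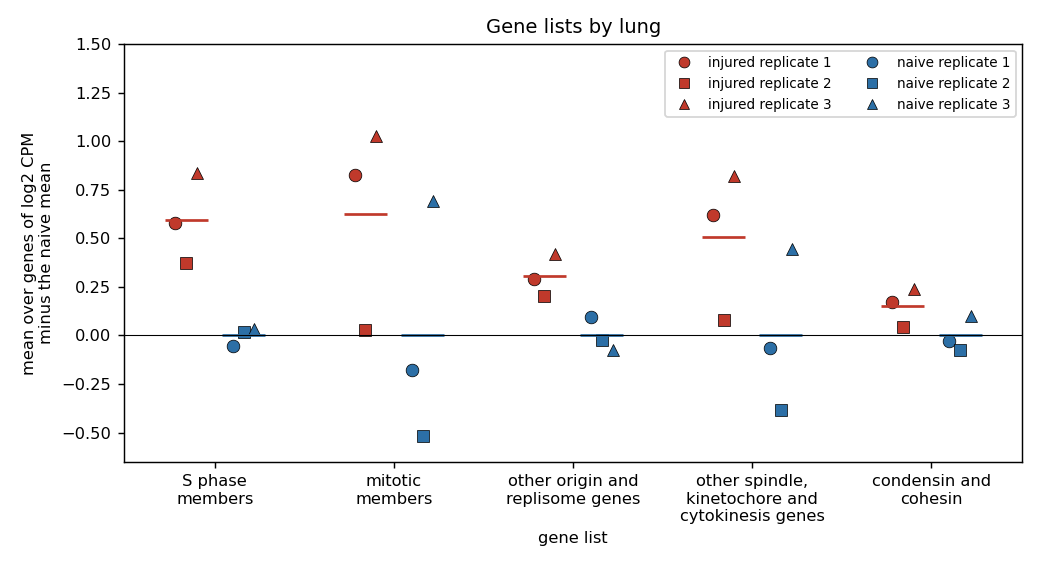
Mean over the genes of each list of log2 CPM minus the naive mean, 1 point per lung, injured left of naive within each list, with a line at each group's mean. Injured lungs lie above all naive lungs for S phase genes and for other origin and replisome genes, and overlap them for mitotic genes, other spindle genes and condensin and cohesin.

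Genes that hold or release the cycle before S phase did not share 1 direction. Ccnd1, cyclin D1, which drives cells out of G1, had 138, 140 and 126 CPM in injured lungs, against 169, 205 and 225 CPM in naive lungs. It fell by 0.57 on the log2 scale (SE 0.11, edgeR adjusted p = 0.0278), the only call among 11 G1 cyclins, CDKs and pocket proteins, whose median was -0.085. Among 8 CDK inhibitors, with a median of 0.25, Cdkn2d rose. It encodes an inhibitor of Cdk4 and Cdk6 and had 22.6, 22.5 and 19.2 CPM in injured lungs, against 14.1, 12.1 and 15.7 CPM in naive lungs (0.61 ± 0.13, edgeR adjusted p = 0.0359). Both genes were separate between groups. Ccnd1 had an adjusted p of up to 0.117 and Cdkn2d of up to 0.154 over the alternatives, when single lungs were left out. Cdkn1a, the p53 target p21, had 106, 93.2 and 153 CPM in injured lungs and 50.3, 64.6 and 234 CPM in naive lungs, so that naive replicate 3 was the highest of all (0.011 ± 0.70, edgeR adjusted p = 0.997). Of 13 genes of the E2F family and the MuvB complex, 0 were called by edgeR. An unadjusted p under 0.05 with a higher level was found for 1, against 9.07% of all tested genes. The median of the 13 was 0.023, with E2f4 (0.044 ± 0.11) and Rbbp4 (0.023 ± 0.079) the most abundant by mean FPKM.

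Markers of other cells moved beside these genes. For the counts that follow, 2.16% of all tested genes rose and 0.956% fell. Of 10 neutrophil markers 7 rose, and their sum was 964 to 2054 FPKM in injured lungs, against 59.6 to 117 FPKM in naive lungs. Granulocyte precursors, which divide, have 6 markers of which only Prtn3 was abundant enough to be tested, and it rose (log2 fold change 2.25 ± 0.44, edgeR adjusted p = 0.0263). Their summed level was 3.30, 1.88 and 3.58 FPKM in injured lungs, against 0.198, 0.725 and 0.601 FPKM in naive lungs. Elane had 11, 3 and 24 counts in injured lungs and 0, 0 and 6 in naive lungs, Mpo had 11, 5 and 7 counts in injured lungs and 0, 0 and 8 in naive lungs, and Ms4a3 was at 0 in all naive lungs and in injured replicate 2. Prtn3 had 37, 34 and 42 counts in injured lungs and 6, 12 and 10 in naive lungs. Ctsg had 4, 3 and 9 counts in injured lungs and 0, 2 and 1 in naive lungs, and Fcnb had 8, 1 and 0 counts in injured lungs and 0, 0 and 1 in naive lungs. In CPM the highest naive lung was replicate 2 for Prtn3 and Ctsg, and replicate 3 for Elane, Mpo and Fcnb. The lowest injured lung was replicate 2 for all of these except Fcnb. Of 9 T cell markers 4 fell and none rose, with sums of 26.8 to 32.3 FPKM in injured lungs and 48.4 to 52.7 FPKM in naive lungs. Of 10 monocyte and macrophage markers 8 rose, with sums of 5563 to 6125 FPKM in injured lungs and 5263 to 6226 FPKM in naive lungs. Most of these sums was Lyz2 (5477 FPKM in injured and 5735 FPKM in naive lungs), which was not called. Averaged over genes and set against the naive mean, this list stood at 1.07, 1.15 and 1.15 log2 units in injured lungs. In naive lungs it stood at 0.025, 0.14 and -0.16. Erythroid precursor markers had 0 of 6 called by edgeR, and their sum was 25.0 to 30.4 FPKM in injured lungs, against 22.1 to 24.2 FPKM in naive lungs. Most of that sum was Tfrc, the transferrin receptor of many dividing cells (22.6 FPKM in injured and 17.4 FPKM in naive lungs), and the median log2 fold change of the list was -0.029. Among thymus markers 2 were abundant enough to be tested, and Themis, which T cells outside the thymus also express, fell (log2 fold change -1.65 ± 0.32, edgeR adjusted p = 0.0239). The list summed to 5.60 to 6.93 FPKM in injured lungs and 5.71 to 6.50 FPKM in naive lungs, most of it Cd1d1. Rag1, which defines developing lymphocytes, was near 0, at 0, 1 and 5 counts in injured lungs and 4, 0 and 8 in naive lungs, and Foxn1, of thymic epithelium, was at 0 in all lungs but naive replicate 1. Cardiac muscle markers, which mouse pulmonary veins also express, had 0 of 7 called by edgeR and sums of 135, 64.2 and 313 FPKM in injured lungs and 233, 399 and 248 FPKM in naive lungs. Of 8 alveolar macrophage markers 1 rose, Chil3. That list summed to 1109 to 1135 FPKM in injured lungs and 673 to 972 FPKM in naive lungs. B cell, fibroblast and endothelial markers had 0 called by edgeR. Fibroblast markers summed to 583, 575 and 939 FPKM in injured replicates 1 to 3 and 424, 626 and 915 FPKM in naive replicates 1 to 3. The part of these cells in the S phase and mitotic results was not tested.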

How the data were processed

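RNA of 3 injured and 3 naive left lungs was measured. The authors deposited read counts per gene, a signal (normalized counts), FPKM values, and log2 fold changes with p-values, per the file headers; STAR, HTSeq, DESeq2, edgeR and mm10 are named in the submitters' processing notes. The sources used here give neither their versions nor whether reads were counted by strand. Dividing counts by 1 factor per library gave the normalized counts within a relative tolerance of 1e-06. The members and lists were chosen with earlier results of these data known. Of 263 list symbols, 3 were absent and 4 were matched by gene identifier.

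Counts were analysed as deposited with edgeR 4.0.16 in R 4.3.3: filterByExpr, TMM, robust quasi-likelihood F test on group alone, two-sided, Benjamini-Hochberg over 15486 genes. CPM used TMM library sizes, and fold changes are injured over naive. Alternatives were DESeq2 1.42.0, limma-voom (limma 3.58.1), DESeq2 size factors, library size alone, other low-count filters, no 20 most abundant genes, a gene length offset, a replicate block and each library left out. All members could be named; other lists gave their called genes or, with none called, the 2 most abundant, with Cdkn1a and Ccnd1 always. In 1 simulation of this comparison on 15318 genes, 200 genes were altered, drawn from all but the least abundant. There edgeR found 83 of the 100 altered by 1 log2 unit and 97 of the 100 altered by 2. Of its 197 calls 17 were false (8.63%), so calls near the threshold may be less secure than stated. Mitotic genes spread more between lungs (median SD 0.599 against 0.177 for all tested genes), so these shares found do not carry over to them. Promoter windows were the RefSeq window nearest to each gene's start in the table, at most 539 bases away.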

Additional observations from a re-analysis of the deposited data

How the results depend on the processing

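The median log2 fold changes of both groups of 20 stayed above 0 under all 15 alternatives. The number of all genes called higher was 578 with DESeq2 and 145 to 333 with 1 library left out, and the number called lower was 269 without a filter on low counts, 398 with DESeq2 and 48 to 146 with 1 library left out. S phase genes called higher numbered 8 with DESeq2, 3 with limma-voom and 0 to 5 with 1 library left out. With DESeq2, 4 further origin and replisome genes and 2 CDK inhibitors were called higher, and without a filter 3 of the origin genes. The CDK inhibitor call was lost with limma-voom and with the gene length offset (0 each) and numbered 0 to 1 with 1 library left out, as did calls of further spindle genes and of lower G1 genes. The mitotic minus S phase difference of medians ran from -0.12 without naive replicate 2 to 0.63 without naive replicate 3.

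Among single genes, the log2 fold change of Ccne2 ran from -0.12 to 0.38, that of Cdc20 from -0.37 to 0.18, and that of Cenpf from -0.54 to 0.72 with 1 library left out. Cdkn1a was at -0.075 with the gene length offset and between -0.35 and 1.02 with 1 library left out. The cause of these changes was not tested.

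Replicate numbers are not stated to pair animals, so they were not taken as pairs. Same-numbered lungs correlated in their deviations by 0.0767, -0.0853 and 0.154 for replicates 1, 2 and 3. Injured replicate 2 correlated best with naive replicate 1 (0.282). With 3 lungs per group these correlations depend on each other and cannot decide whether lungs were paired. With the replicate number as a block, 2 mitotic genes, Birc5 (edgeR adjusted p = 0.0383) and Plk1 (0.0376), were called higher. That fit called 2.67% of all tested genes higher, against 2.16% in the main fit. In it Gins2 (0.0521) and the CDK inhibitor Cdkn2d (0.0514) were not called, and Cenpf stood at 0.022. Genes with under 5 CPM, such as Gins2, rest on few counts.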
